A study of Homo sapiens with 6 samples.

Results

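The comparison described here sets 2 short hairpins against the same transcript side by side: shDDX18#3 and shDDX18#1, both directed at DDX18, in the human embryonic stem cell lines H9 and HES2. Its members were taken by their labels, not by measured values, and are 4 of the 6 deposited messenger RNA libraries: 2 of shDDX18#3 and 2 of shDDX18#1, 1 per line and hairpin, paired by line. The study was designed around the part DDX18 has in keeping embryonic stem cells undifferentiated. The remaining 2 libraries carry shLuc, a hairpin against luciferase, 1 per line, and do not enter the main fit. They are printed as levels beside the others. They also enter the alternative 6-library fits, among them every fit that leaves out a hairpin library.

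All groups share the same handling. H9 and HES2 are established lines, which were kept on irradiated mouse embryonic fibroblasts in a serum replacement medium with bFGF, infected with hairpin virus and harvested on day 4. The labels give no allele, no drug selection, no sorting away from the feeders and no hairpin sequence. Each library has its own combination of line and hairpin, so none repeats another. A p-value here thus rests on how far the hairpin difference disagrees between the lines, with a prior variance taken from all genes. The spread between repeated cultures of the same line and hairpin was not measured.

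DDX18 is a nucleolar RNA helicase of the DEAD-box family, which takes part in the assembly of the large ribosomal subunit. Human embryonic stem cells hold their undifferentiated state through a network of transcription factors that includes SOX2 and NANOG, divide rapidly and produce ribosomes at a high rate. A pair of hairpins against 1 transcript is commonly used because each can differ in how far it lowers its target and in what else it acts on. In bulk RNA, fewer cells of a type and less RNA per cell cannot be told apart.

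Levels are in CPM, that is, counts per 1000000 reads after scaling by the effective size of each library, as deposited. A pair of levels in a line is always in the order shDDX18#1 and shDDX18#3, and a pair of shLuc levels in the order H9 and HES2. A difference is always shDDX18#3 minus shDDX18#1 on the log2(CPM + 1) scale, which understates the change of low genes. The libraries held between 2668179 and 4271741 reads, so that 1 read is worth between 0.224 and 0.408 CPM. The shDDX18#1 library was the shallower of the pair in both lines, at 2668179 against 3178058 reads in H9 and 2966308 against 3391529 in HES2. Of 13 markers of human embryonic stem cells, 12 had at least 3 reads in all 4 hairpin libraries. The exception was POU5F1, at 0.817 and 1.62 CPM in H9 shDDX18#1 and shDDX18#3 and 0.322 and 1.39 in HES2; shLuc was at 1.66 and 3.58. POU5F1 has near-identical copies in the genome, and its reads are uncertain here.

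Both hairpins left different amounts of their target. DDX18 (ENSG00000088205) stood at 19.2 CPM in H9 shDDX18#1 and 47.3 in H9 shDDX18#3, and at 39.3 and 60.4 CPM in HES2, with 153 and 161 CPM in the shLuc libraries. The shDDX18#3 library was the higher of the pair in both lines, the hairpin groups did not overlap, and both lay under shLuc. With 2 libraries per hairpin a lack of overlap is a weak criterion, here and below. The share of all genes tested that meet it was not counted. The difference was 0.93 with SE 0.20 (limma adjusted p = 0.0276, n = 2 per hairpin), made of 1.26 in H9 and 0.61 in HES2, and it was 0.54 when H9 shDDX18#1 was left out. How much DDX18 remains and which hairpin was used therefore change together in both lines, and cannot be told apart in what follows.

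**Figure D1:**
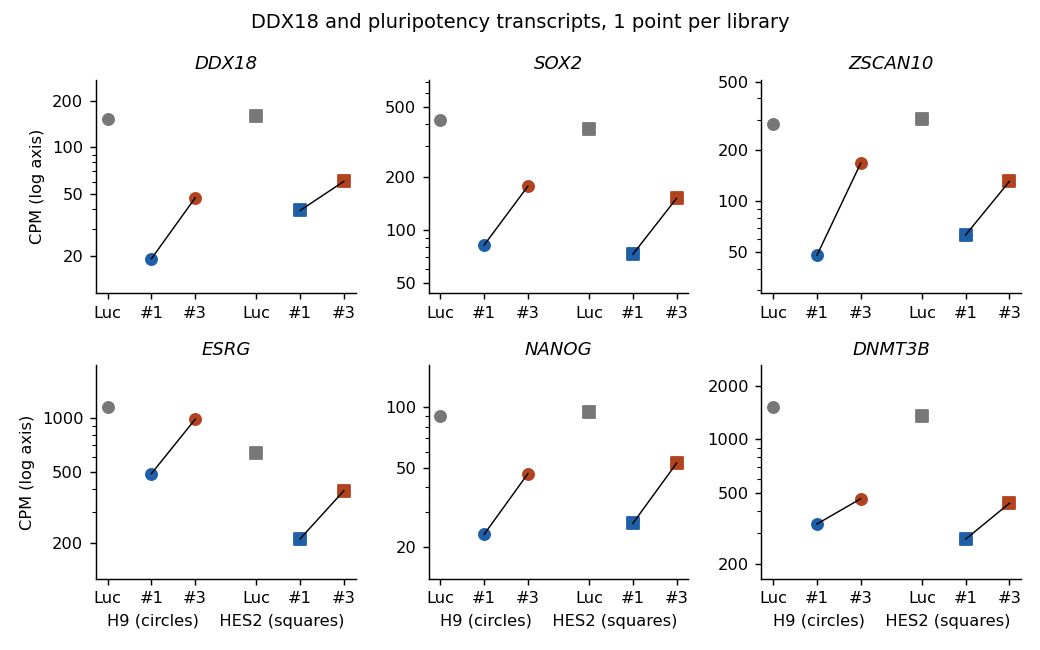
Level of DDX18 and 5 pluripotency transcripts in each library (CPM, log axis; 1 point per library, circles H9, squares HES2, grey shLuc, blue shDDX18#1, red shDDX18#3, with lines joining the hairpin libraries of a line). For all 6 transcripts shDDX18#3 lies above shDDX18#1 in both lines, and both lie under shLuc of the same line.

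Of 17052 genes tested, limma called 274 higher in shDDX18#3, which is 1.61%, and 382 lower, which is 2.24%, together 3.85%. Of these, 90 were higher and 187 lower by 2-fold or more. The median size was 0.85 for the called higher genes and -0.98 for the called lower genes, against a median difference of 0.02 over all genes tested. Protein-coding genes made up 253 of the higher and 358 of the lower calls, and long intergenic RNAs 8 and 3. Among the gene lists, all called members were higher for pluripotency (15 of 34), S phase and replication (14 of 44) and G2 and mitosis (17 of 38), and all were lower for endoderm (12 of 23). Of 26 fibroblast and feeder markers, 12 were called lower and 1 higher.

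These calls rest on a fit with 1 residual degree of freedom, steadied by a prior variance taken from all genes. With the shLuc libraries added to the estimate of spread, limma called 0 genes in either direction (1371 higher and 1127 lower at an unadjusted p under 0.05, and 10 and 18 by edgeR in the same 6-library fit). DESeq2 on the recovered reads of the 4 hairpin libraries called 25 higher and 95 lower, and edgeR 480 and 786. Leaving out a hairpin library leaves no residual degree of freedom in the fit of 4, so this was done within the 6-library fit, which calls 0 genes with every library in. There limma called 0 genes without H9 shDDX18#1, H9 shDDX18#3 or HES2 shDDX18#3, and 23 higher and 34 lower without HES2 shDDX18#1. Values given without a library, above and below, come from the same fits. In these, the hairpin library left without its partner still enters through the line term, which the shLuc libraries help to set. Such a value is therefore not the difference of the remaining pair, and the differences by line show each pair. Of the 656 genes called, 119 were also called by DESeq2 and 27 by edgeR with 6 libraries. Among 85 of the called genes named below, 16 were called by limma, by edgeR with 4 and with 6 libraries and by DESeq2. Of these, SOX2, ZSCAN10, STMN3, UNC13A, ACTA1 and PLAU were higher. APOA1, HP, IHH, CXCR4, IGFBP3, IGFBP5, IGFBP6, LOX, GDF15 and HMOX1 were lower.

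Most values are therefore given by line. Over all genes tested, differences had an SD of 0.63 in H9 and 0.46 in HES2, and correlated across genes with r of 0.37. That is a description only, since genes are not independent replicates. Among 10845 genes with a mean of at least 10 CPM, 302 were 2-fold or more higher in shDDX18#3 in H9, and 269 of them (89.1%) were also higher in HES2, against 51.4% of all such genes. Of 483 genes that were 2-fold or more lower in H9, 399 (82.6%) were lower in HES2. In the opposite direction, 64 of 72 genes 2-fold higher in HES2 (88.9%) were higher in H9, against 54.4% of all such genes. Of 135 genes 2-fold lower in HES2, 125 (92.6%) were lower in H9. The share of all such genes that were lower in a line was not counted separately. In both lines at once, 27 genes were 2-fold higher and 81 were 2-fold lower.

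**Figure D2:**
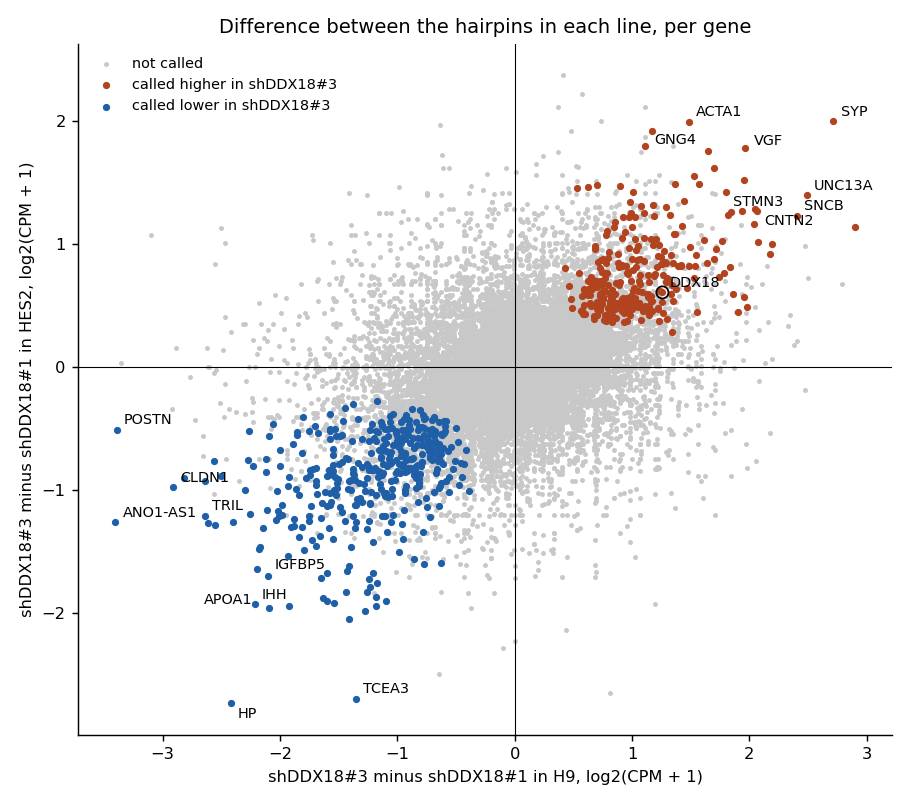
Difference between shDDX18#3 and shDDX18#1 for each of 17052 genes in H9 (horizontal) and HES2 (vertical), both on the log2(CPM + 1) scale; red points are the 274 genes called higher, blue points the 382 called lower, grey the rest, and the circle marks DDX18. The called genes lie in the lower left and upper right corners of the plot, and 0 called genes have opposite directions in the lines. The fit nearly sets this in advance, since its only residual is the disagreement between the lines.

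Pluripotency transcripts were the list with the largest positive median. Of 34 members tested, 15 were called higher and 0 lower, with a median difference of 0.72, made of 0.76 in H9 and 0.62 in HES2. SOX2, a core transcription factor of the pluripotent state, stood at 82.1 CPM in H9 shDDX18#1 and 178 in H9 shDDX18#3, and at 72.7 and 151 in HES2, with 422 and 377 in shLuc. The hairpin groups did not overlap, and the difference was 1.08 with SE 0.14 (limma adjusted p = 0.00289). ZSCAN10, a zinc finger transcription factor of embryonic stem cells, went from 48.2 to 167 CPM between the hairpins in H9 and from 63.4 to 130 in HES2, with 282 and 302 in shLuc. Its difference was 1.40 with SE 0.18 (limma adjusted p = 0.0029), and again the groups did not overlap. ESRG, a long noncoding RNA abundant in human embryonic stem cells, was at 488 and 978 CPM in H9 and at 212 and 392 in HES2. It was higher with shDDX18#3 within each line, by 0.94 with SE 0.12 (limma adjusted p = 0.0029), although the groups overlapped because H9 had more of it than HES2.

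Several further members were looked at after their values had been seen. NANOG, the homeodomain factor of the network, was at 23.3 and 46.7 CPM in H9 and 26.4 and 52.6 in HES2, a difference of 0.97 with SE 0.18 (limma adjusted p = 0.0153). Reads of NANOG may be shared with its processed copies. DPPA4, a chromatin-associated protein of pluripotent cells, was higher by 1.07 in H9 and 0.76 in HES2, L1TD1, an RNA-binding protein of these cells, by 0.78 and 0.76, and USP44, a ubiquitin protease, by 1.01 and 1.42. The remaining called members were LINC00678, TERF1, HHLA1, SALL2, ZFP42, DNMT3B, VSNL1 and PRDM14, and 19 of the 34 members tested were not called. In each of the transcripts plotted with DDX18, shDDX18#3 lay between shDDX18#1 and shLuc of the same line.

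DNA methyltransferase genes were also higher in shDDX18#3. Of 11 members of the DNA methylation list, 3 were called higher and 0 lower, with a median of 0.18. DNMT3B, the de novo enzyme most abundant in embryonic stem cells, was at 336 and 466 CPM in H9 and 277 and 439 in HES2, against 1527 and 1349 in shLuc. The hairpin difference of DNMT3B was 0.57 with SE 0.12 (limma adjusted p = 0.0301). DNMT3A, the other de novo enzyme, differed by 1.09 in H9 and 0.46 in HES2. DNMT1, which maintains methylation after replication, differed by 0.70 and 0.43, and by 0.31 in the fit without H9 shDDX18#1.

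Part of the genes of the cell cycle were higher in shDDX18#3, and 0 were called lower. Of 44 S phase and replication genes, 14 were called higher and 0 lower, with a median of 0.60 (0.93 in H9, 0.40 in HES2). Of 38 genes of G2 and mitosis, 17 were called higher and 0 lower, with a median of 0.66 (0.83 and 0.49). RRM2, the ribonucleotide reductase subunit that supplies deoxynucleotides, was at 47.4 and 128 CPM in H9 and 80.4 and 143 in HES2. The shDDX18#3 libraries were both above the shDDX18#1 libraries, by 1.12 with SE 0.17 (limma adjusted p = 0.00596). MCM7, a subunit of the replicative helicase, differed by 0.85 (1.08 in H9, 0.62 in HES2).

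Among the mitotic genes, BUB1B, a spindle checkpoint kinase, was at 47.8 and 94.01 CPM in H9 and 53.7 and 92.7 in HES2, a difference of 0.87 with SE 0.15 (limma adjusted p = 0.0122). AURKB, the kinase of the chromosomal passenger complex, was higher by 0.91 in H9 and 1.06 in HES2. MKI67, the proliferation marker, was higher by 1.14 and 0.58, and by 0.49 in the fit without H9 shDDX18#1. All of BUB1B, AURKB, MKI67, RRM2 and MCM7 were without overlap between the hairpins, and all 5 were lower in both hairpin groups than in shLuc. These 5 were named for their small p, so their lack of overlap is no separate result.

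Few transcripts of ribosome production were called, and all of those were higher in shDDX18#3. Of 56 small subunit assembly genes, 1 was called higher, of 59 large subunit assembly genes 2, DDX18 among them, and of 77 ribosomal protein genes 3, with 0 called lower in each. Their medians were 0.21, 0.26 and 0.24, against 0.02 over all genes tested. Of 29 nucleolar scaffold and RNA polymerase I genes, 3 were called higher, with a median of 0.32 (0.48 in H9, 0.20 in HES2). The shares called higher were 1.79%, 3.39%, 3.90% and 10.3% in the small subunit, large subunit, ribosomal protein and nucleolar lists, beside 1.61% of all genes tested. The large subunit share includes DDX18, the target of both hairpins, and the nucleolar share includes MKI67, also counted among the mitotic genes. Of the 77 ribosomal protein genes, 65 were above 0 in both lines and 2 below. The share of all genes tested above 0 in both lines was not counted. Among 32 DEAD-box helicase genes, DDX18 was the only one called.

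The called members besides DDX18 and MKI67 had differences between 0.51 and 0.80. FBL, the methyltransferase of box C/D small nucleolar ribonucleoproteins, was at 106 and 160 CPM in H9 and 120 and 172 in HES2, a difference of 0.55 with SE 0.13 (limma adjusted p = 0.0431). MDN1, the large ATPase that remodels the large subunit precursor, differed by 0.97 in H9 and 0.52 in HES2, NOLC1, a chaperone of small nucleolar particles, by 0.77 and 0.62, and NCL, nucleolin, by 0.60 and 0.44. Without H9 shDDX18#1, NCL was at 0.34. The large subunit proteins RPL3, RPL12 and RPL15 differed by 0.58, 0.52 and 0.51. Each has processed copies in the genome, so their reads are uncertain. SNHG14, the host of the imprinted box C/D small nucleolar RNA clusters, was the called member of 24 host genes, at 375 and 702 CPM in H9 and 326 and 527 in HES2 (difference 0.80, SE 0.12, limma adjusted p = 0.00759).

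The 12 largest positive differences were SYP, UNC13A, VGF, SNCB, ACTA1, C1orf94, GNG4, CNTN2, RPL7AP6, STMN3, RAB3C and CAMKV, of which SYP, CNTN2 and STMN3 belong to the neuronal list. REST is a repressor that keeps many neuronal genes low outside neurons, and it binds a bipartite DNA element, RE1. To show what stands at the start sites of these 12 genes, RefSeq promoters (GRCh38.p14, 250 bases before to 50 after a start) were searched on both strands for the RE1 half-sites TTCAGCACC and GGACAG with 2 bases of any kind between them. Of 35116 promoters, 0.0541% held the pair with at most 1 mismatch in the 15 letters and 1.33% with at most 3. These shares are per promoter. The counts that follow are per gene, by its best promoter, so a gene with several promoters has more chances and the 2 are not alike. A promoter was matched for 11 of the 12 largest positive differences, and VGF, UNC13A and CAMKV held a site with at most 3 mismatches; for the 12 largest negative ones a promoter was matched for 8, and SPON2 held a site. The sites are printed 5′ to 3′ on the strand that carries them, with capitals where a base equals the half-site and lower case elsewhere.
VGF chr7:101165559-101165575 (plus strand, 1 mismatch): TTCAGCACgctGGACAG
UNC13A chr19:17688340-17688356 (plus strand, 3 mismatches): TTCAGCACCggGGgCgc
CAMKV chr3:49870078-49870094 (minus strand, 3 mismatches): TTgAGaACCttGGcCAG
SPON2 chr4:1172659-1172675 (minus strand, 3 mismatches): TgCAGCAtCgaaGACAG
These are matches of letters and not measured binding. The VGF and UNC13A matches lie across the annotated start of the gene.

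VGF, a secreted neuropeptide precursor of neurons and endocrine cells, had the smallest adjusted p of the positive differences named. Its level was 180 CPM in H9 shDDX18#1 and 704 in H9 shDDX18#3, and 144 and 495 in HES2, with 50.9 and 10.95 in shLuc. Both hairpin groups lay above shLuc, shDDX18#3 higher still, and the groups did not overlap: the difference was 1.87 with SE 0.13 (limma adjusted p = 0.000102). SYP, the synaptic vesicle protein synaptophysin, had the largest difference, 2.36 with SE 0.38 (limma adjusted p = 0.00841). It was at 1.23 and 13.6 CPM in H9 and 0.644 and 5.57 in HES2, so its shDDX18#1 libraries stood at only a few reads. UNC13A, which primes synaptic vesicles for release, was at 14.7 and 87.2 CPM in H9 and 27.0 and 73.0 in HES2. With 77.0 and 90.5 CPM in shLuc, the shDDX18#3 libraries of UNC13A were near shLuc and the shDDX18#1 libraries far under it, with a difference of 1.94 and SE 0.24 (limma adjusted p = 0.00219).

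STMN3, a microtubule-destabilising stathmin of neurons, was at 31.0 and 111 CPM in H9 and 26.4 and 72.7 in HES2, with 49.8 and 40.5 in shLuc. Here the hairpins lay on opposite sides of shLuc in both lines, and their difference was 1.61 with SE 0.17 (limma adjusted p = 0.00129). CNTN2, an axonal adhesion protein, was at 20.8 and 90.4 CPM in H9 and 4.83 and 13.1 in HES2, higher with shDDX18#3 in both lines (2.07 and 1.27) but overlapping across lines. The difference of CNTN2 was 0.77 without H9 shDDX18#3 and 2.57 without HES2 shDDX18#3. SNCB, beta-synuclein, differed by 2.41 in H9 and 1.23 in HES2 (1.01 without H9 shDDX18#3), GNG4, a G protein gamma subunit, by 1.65 in H9 and 1.76 in HES2, RAB3C, a vesicle GTPase, by 2.04 and 1.16, and CAMKV, a kinase-like vesicle protein, by 1.93 and 1.27. SNCB and RAB3C were each under 2 CPM in both shDDX18#1 libraries. C1orf94 differed by 1.74, and RPL7AP6, a ribosomal protein pseudogene whose reads may belong to its parent, by 1.67.

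In the wider neuronal list most members were not called, although 14.3% were called higher beside 1.61% of all genes tested. Of its 35 members tested, 5 were called higher (STMN3, CNTN2, SYP, CRMP1 and L1CAM) and 0 lower, with a median of 0.27. CHGA and SCG3, granins of secretory granules, were looked at after their values had been seen, and both were called: SCG3 was at 8.17 and 21.4 CPM in H9 and 10.9 and 28.4 in HES2, a difference of 1.29 with SE 0.24 (limma adjusted p = 0.0151), and CHGA differed by 1.19. REST, also looked at afterwards, was at 74.3 and 50.9 CPM in H9 and 92.4 and 69.1 in HES2, with 86.4 and 90.1 in shLuc. Its difference of -0.48 with SE 0.15 was not called (limma adjusted p = 0.105), with both lines below zero, and whether it bears on the genes above was not tested. Of 16 neural progenitor and ectoderm genes, the transcription factors IRX3 (-1.51), SOX21 (-1.44) and PAX6 (-1.37) were called lower and SOX3 higher, and 7 were above and 7 below 0 in both lines. Of 10 neuron and neural progenitor markers, SOX1, ELAVL3 and ELAVL4 were not among the genes of the table, and of the 7 others 3 were higher and 3 lower in shDDX18#3 in both lines. Together they took 0.0440% of the reads in H9 shDDX18#1 and 0.0235% in H9 shDDX18#3, and 0.0114% and 0.00944% in HES2, so their summed share was lower with shDDX18#3. The neurofilament genes NEFM and NEFL hold most of it: NEFM was at 241 and 71.0 CPM in H9 and 25.1 and 22.3 in HES2, and NEFL at 185 and 118 CPM in H9 and 48.6 and 34.8 in HES2, neither being called.

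**Figure D3:**
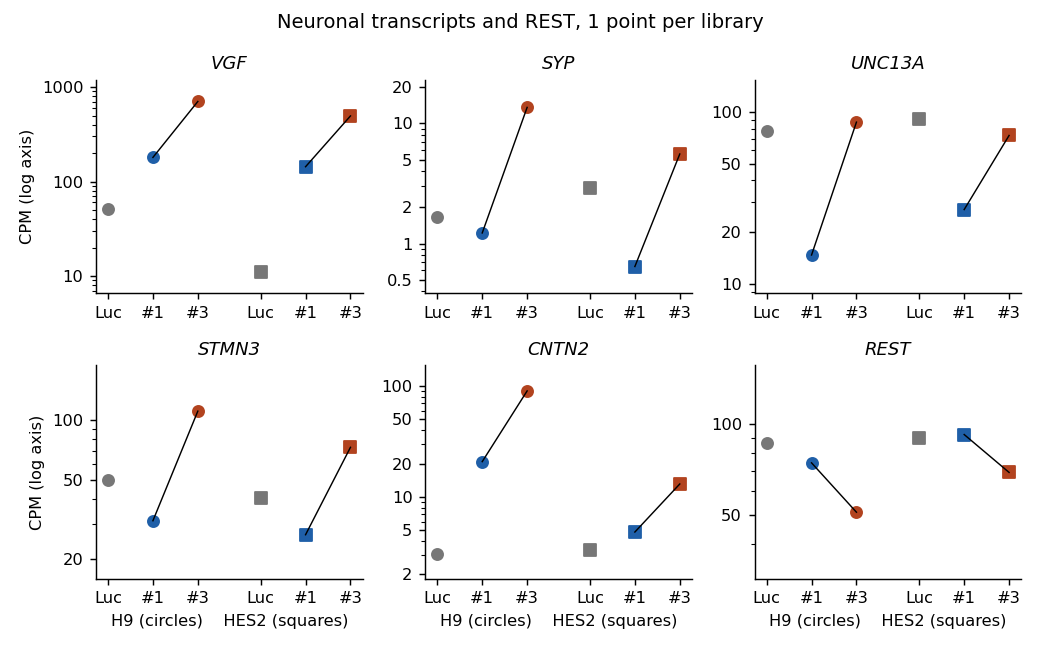
Level of 5 neuronal transcripts and REST in each library (CPM, log axis; 1 point per library, circles H9, squares HES2, grey shLuc, blue shDDX18#1, red shDDX18#3, with lines joining the hairpin libraries of a line). The neuronal transcripts are higher and REST is lower with shDDX18#3 in both lines, while shLuc lies under both hairpins for VGF, between them for STMN3 and above REST of shDDX18#3.

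Endoderm transcripts had the lowest median of the lists with more than 2 members tested. Of 23 members tested, 12 were called lower in shDDX18#3 and 0 higher, with a median of -0.85 (-0.88 in H9, -0.77 in HES2). APOA1, the main protein of high-density lipoprotein and an early product of visceral endoderm and liver, was at 134 and 30.8 CPM in H9 and 124 and 31.2 in HES2. With 8.86 and 4.02 CPM in shLuc, both hairpin groups lay above shLuc, shDDX18#1 higher still and without overlap, and the difference was -2.02 with SE 0.15 (limma adjusted p = 0.000152). APOB, the protein of low-density lipoprotein, was at 87.0 and 18.5 CPM in H9 and 116 and 40.9 in HES2, a difference of -1.83 with SE 0.19 (limma adjusted p = 0.00129), and of -1.17 without H9 shDDX18#3. CXCR4, a chemokine receptor and surface marker of definitive endoderm, was at 242 and 92.4 CPM in H9 and 169 and 72.7 in HES2. Its difference was -1.29 with SE 0.14 (limma adjusted p = 0.00129), with 24.9 and 14.8 CPM in shLuc.

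Several transcription factors are among the called members. HNF4A, a nuclear receptor of visceral endoderm and liver looked at after its values had been seen, was at 73.5 and 34.0 CPM in H9 and 62.7 and 24.2 in HES2, with 4.98 and 1.79 in shLuc (difference -1.21, SE 0.17, limma adjusted p = 0.00493). GATA4 differed by -0.86 in H9 and -0.83 in HES2, and by -0.56 in the fit without H9 shDDX18#3. GATA6, also chosen afterwards, differed by -0.88 and -0.82, and FOXA2 by -1.02 and -0.92. The other called members were GSC, APOE, SOX17, CER1 and LHX1. CER1, a secreted NODAL and BMP antagonist chosen afterwards, differed by -1.81 in H9 and -0.40 in HES2, and by -0.26 without H9 shDDX18#1 and -1.94 without HES2 shDDX18#1. Of the 6 endoderm markers used for the cell type check, 5 were lower in shDDX18#3 in both lines and 1 was higher.

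Secreted proteins and nuclear factors outside the endoderm list were among the 12 largest negative differences. HP, the haemoglobin scavenger haptoglobin, was at 63.3 and 11.02 CPM in H9 and 16.7 and 1.67 in HES2, the largest of all at -2.58 with SE 0.26 (limma adjusted p = 0.00115). HP has a near-identical neighbour, so the division of its reads is uncertain. IHH, the hedgehog ligand of visceral endoderm, was at 41.2 and 8.10 CPM in H9 and 18.7 and 4.18 in HES2, a difference of -2.07 with SE 0.26 (limma adjusted p = 0.00283). RNASE1, a secreted ribonuclease, differed by -1.93 (-1.92 in H9, -1.94 in HES2), and NR2F1, an orphan nuclear receptor, by -1.92 (-2.20 and -1.64). TCEA3, a transcription elongation factor, differed by -1.35 in H9 and -2.69 in HES2, from shDDX18#1 levels of 7.35 and 14.5 CPM.

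The insulin-like growth factor binding proteins IGFBP3, IGFBP5 and IGFBP6, which hold the growth factors outside cells, were lower in shDDX18#3. Of 17 members of this axis, 5 were called lower and 0 higher, although the median of the list was -0.12. IGFBP5 was at 1180 and 274 CPM in H9 and 358 and 110.0 in HES2, with 79.5 and 14.3 in shLuc. The groups did not overlap, and the difference was -1.90 with SE 0.14 (limma adjusted p = 0.000105). IGFBP6 was at 314 and 103 CPM in H9 and 107 and 32.9 in HES2 (difference -1.63, SE 0.14, limma adjusted p = 0.000289). IGFBP3 differed by -1.43 (-1.40 in H9, -1.46 in HES2), with the groups overlapping because H9 held more of it.

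Genes of the extracellular matrix and of fibroblasts were lower in shDDX18#3, with larger values in H9. Of 26 fibroblast and feeder markers, 12 were called lower and 1 higher, with a median of -0.83, made of -1.32 in H9 and -0.41 in HES2. Together these 26 markers took 9.27% of the reads in H9 shDDX18#1 and 3.54% in H9 shDDX18#3, and 3.64% and 2.23% in HES2, with 0.722% and 0.303% in shLuc. Of them 19 were lower and 3 higher in shDDX18#3 in both lines, 24 had at least 3 reads in all 4 hairpin libraries, and the defining fibroblast markers DCN and FAP were at 0 reads in HES2 shDDX18#3 and HES2 shLuc. Without FN1 the shares were 4.51% and 1.88% in H9 and 0.799% and 0.670% in HES2. The feeders were mouse fibroblasts under all libraries, and the part that feeder or fibroblast RNA has in the differences below was not tested. The H9 shDDX18#1 library also stands apart in the share of its reads taken by its 10 most abundant genes, 10.9% against 7.45%, 6.95% and 6.04% in the other hairpin libraries.

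FN1, fibronectin, was the most abundant transcript of every hairpin library. It was at 51833 and 17115 CPM in H9 and 27157 and 14764 in HES2, with 2424 and 1025 in shLuc, a difference of -1.24 with SE 0.21 (limma adjusted p = 0.0102), and of -0.80 without H9 shDDX18#3. LOX, which crosslinks collagen, was at 163 and 42.1 CPM in H9 and 50.2 and 16.7 in HES2, a difference of -1.73 with SE 0.17 (limma adjusted p = 0.00115), with no overlap in either gene. LAMA1, a laminin chain of early basement membranes, differed by -0.76 in H9 and -1.06 in HES2, and by -0.60 without HES2 shDDX18#1. Among the 51 matrix glycoproteins and remodelers, 13 were called lower and 2 higher, with a median of -0.45. TWIST1, a transcription factor of mesenchyme, differed by -1.30 in H9 and -1.09 in HES2, and of 21 genes of the mesenchymal transition 6 were called lower and 1 higher.

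Collagen genes differed between the lines in level as well as between the hairpins. Of 38 tested, 9 were called lower and 1 higher, with a median of -0.46 (-0.68 in H9, -0.25 in HES2). COL1A1 was at 18386 and 6175 CPM in H9 but 1124 and 749 in HES2, a difference of -1.57 in H9 and -0.59 in HES2. COL6A3 was at 5916 and 1227 CPM in H9 and 420 and 249 in HES2, a difference of -2.27 and -0.75. COL26A1 was the called collagen that was higher, at 31.4 and 81.0 CPM in H9 and 70.5 and 113 in HES2. Without H9 shDDX18#1 the differences were -0.70 for COL1A1, -0.94 for COL6A3 and 0.49 for COL26A1. Without H9 shDDX18#3 they were -0.72 for COL1A1 and -0.95 for COL6A3, and without HES2 shDDX18#1 that of COL26A1 was 1.52. POSTN, periostin, was at 1667 and 158 CPM in H9 but at 1.61 and 0.835 in HES2, which is only a few reads. Its difference of -1.95 is therefore a value of H9: without H9 shDDX18#1 the difference of POSTN was 0.18, and without HES2 shDDX18#1 it was -4.08.

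Of the remaining largest negative differences, SPON2, a secreted matrix protein, was at 138 and 21.7 CPM in H9 and 6.76 and 2.23 in HES2, and CLDN1, a tight junction protein, at 96.8 and 11.99 CPM in H9 and 11.9 and 5.57 in HES2. TRIL, a Toll-like receptor accessory protein, differed by -2.64 in H9 and -1.21 in HES2. ANO1-AS1 differed by -3.40 in H9 and -1.26 in HES2, from 23.3 and 7.40 CPM with shDDX18#1. Without H9 shDDX18#1 the differences were -0.93 for SPON2, -1.04 for CLDN1, -1.16 for TRIL and -1.14 for ANO1-AS1. Without HES2 shDDX18#1 they were -2.95 for SPON2 and -3.52 for ANO1-AS1. The last is an antisense transcript, and since the library kit keeps no strand its reads cannot be told apart from those of the gene it overlaps.

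**Figure D4:**
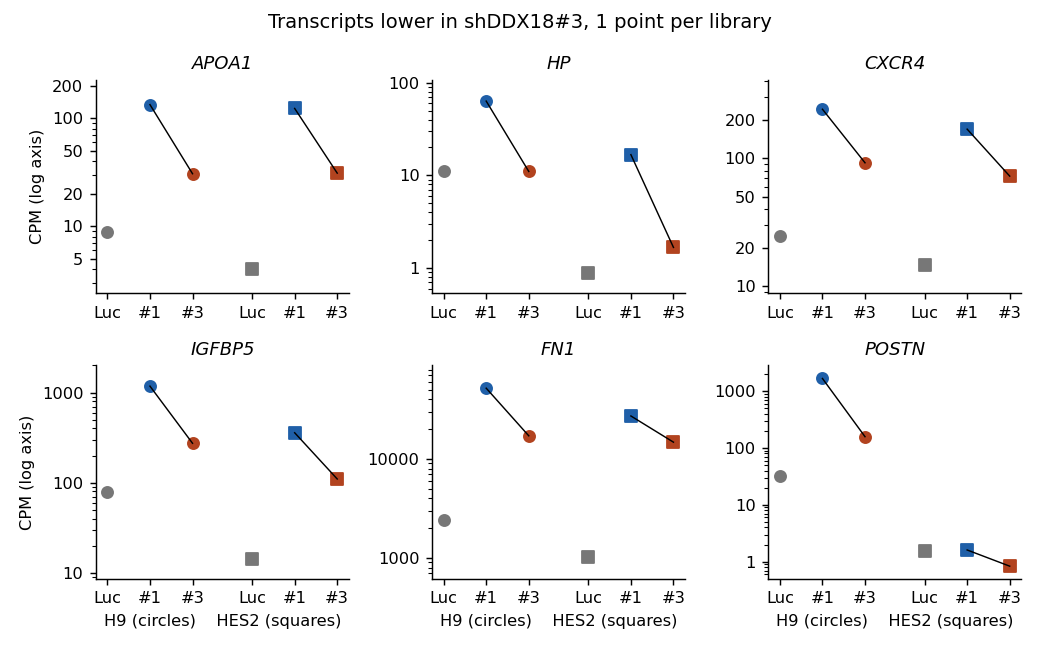
Level of 6 transcripts that were lower in shDDX18#3 in each library (CPM, log axis; 1 point per library, circles H9, squares HES2, grey shLuc, blue shDDX18#1, red shDDX18#3, with lines joining the hairpin libraries of a line). APOA1, CXCR4, IGFBP5 and FN1 fall from shDDX18#1 to shDDX18#3 in both lines and stay above shLuc, HP in H9 comes down to its shLuc level, and POSTN has only a few reads in HES2.

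Some contractile and protease genes were higher in shDDX18#3. Of 25 smooth muscle and SRF target genes, 3 were called higher and 0 lower, with a median of 0.20, alike in H9 (0.19) and HES2 (0.21). PLAU, the urokinase that activates plasminogen, was at 123 and 316 CPM in H9 and 54.4 and 116 in HES2 (difference 1.22, SE 0.14, limma adjusted p = 0.00158). PLAU overlaps C10orf55, and without strand their reads cannot be told apart. TAGLN, CNN1 and VCL, actin-binding proteins of contractile cells, differed by 0.66, 0.72 and 0.49. ACTA1, skeletal muscle actin, was at 103 and 289 CPM in H9 and 2.25 and 11.97 in HES2, a difference of 1.74 with SE 0.20 (limma adjusted p = 0.00158). It belongs to the mesoderm and cardiac list, where of 28 members tested 2 were called higher and 3 lower, with a median of -0.28. The members called lower were TTN, GATA4 and ANKRD1. TTN, titin of striated muscle, differed by -1.07 in H9 and -0.78 in HES2.

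The genes named here from the stress response lists were lower in shDDX18#3. The shares called in either direction were 12.8% of p53 targets, 25% of NRF2, 7.69% of ATF4 and 20.7% of glycolysis and hypoxia genes. Over all genes tested the share was 3.85%. Of 39 p53 targets, 4 were called lower and 1 higher, with a median of -0.10. GDF15, a secreted stress cytokine, was at 238 and 75.2 CPM in H9 and 198 and 59.6 in HES2, with 18.8 and 6.71 in shLuc. It differed by -1.68 with SE 0.14 (limma adjusted p = 0.000199), without overlap. CDKN1A, the cell cycle inhibitor p21, was at 1238 and 445 CPM in H9 and 404 and 275 in HES2, a difference of -1.01 with SE 0.18 (limma adjusted p = 0.013), and of -0.55 without H9 shDDX18#3.

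Of 20 NRF2 antioxidant genes, 4 were called lower and 1 higher, with a median of -0.17. HMOX1, which degrades haem, was at 191 and 55.8 CPM in H9 and 124 and 51.5 in HES2, with 35.2 and 24.4 in shLuc (difference -1.50, SE 0.16, limma adjusted p = 0.00129). The quinone reductase NQO1 differed by -0.80 with SE 0.14 (limma adjusted p = 0.0118), and by -0.47 without H9 shDDX18#3. FTH1, the ferritin heavy chain, was at 4784 and 1293 CPM in H9 and 1530 and 995 in HES2. Its difference was -0.58 without H9 shDDX18#1 and -1.93 without HES2 shDDX18#1. FTH1 has many processed copies, and its reads are uncertain.

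SLC7A5 and SLC3A2, the light and heavy chain of the large amino acid transporter LAT1, were the 2 called members of the 26 genes of ATF4 and amino acid stress. SLC7A5 was at 2211 and 941 CPM in H9 and 2064 and 957 in HES2, with 1060 and 560 in shLuc, and SLC3A2 at 768 and 425 CPM in H9 and 669 and 374 in HES2. In both genes the hairpin groups did not overlap, and the differences were -1.17 and -0.84 (limma adjusted p = 0.00129 and 0.00493). Of 29 glycolysis and hypoxia genes, 6 were called lower and 0 higher while the median was 0.08. VEGFA, the vascular growth factor, differed by -1.22 in H9 and -0.70 in HES2, P4HA2, a collagen prolyl hydroxylase, by -1.51 and -0.98, and ADM, adrenomedullin, by -0.58 and -0.93. Without H9 shDDX18#1, VEGFA was at -0.57 and P4HA2 at -0.70.

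The signalling lists had called members mostly lower in shDDX18#3. Of 18 genes of BMP and ID, 5 were called lower and 0 higher, with a median of -0.39: NOG, a BMP antagonist, differed by -1.60, MSX2, a BMP-induced homeodomain factor, by -1.05 and BMP2 by -0.71. Leaving out 1 library moved MSX2 to between -1.61 (without H9 shDDX18#1) and -0.49 (without HES2 shDDX18#1), and BMP2 to -0.44 without H9 shDDX18#3 and -0.36 without HES2 shDDX18#1. Of 32 WNT pathway genes, 6 were called lower and 1 higher. The receptor FZD8 was at 122 and 39.5 CPM in H9 and 65.0 and 29.2 in HES2, a difference of -1.36 with SE 0.17 (limma adjusted p = 0.00289), and RSPO3 and WNT5A differed by -1.53 and -0.91. Of 23 AP-1 and immediate early genes, 6 were called lower and 0 higher, among them EGR2 (-1.72, and -0.92 without H9 shDDX18#1), SGK1 (-0.93) and KLF6 (-0.73). Of 25 YAP and TEAD targets, 5 were called lower and 0 higher, among them ANKRD1 (-0.73) and DLC1 (-0.88). ANKRD1 differed by -0.83 in H9 and -0.63 in HES2. In the 6-library fits it was at -0.08 without H9 shDDX18#3 and -0.22 without HES2 shDDX18#1. It was at -1.24 without H9 shDDX18#1 and -1.39 without HES2 shDDX18#3, so these fits spread more widely than the pairs. DLC1 was at -0.49 without H9 shDDX18#3 and -0.54 without HES2 shDDX18#1. HOXB2 was the called member of 18 homeobox cluster genes, at -2.23 in H9 and -0.80 in HES2 (-0.59 without H9 shDDX18#3, -2.44 without HES2 shDDX18#3). HAND1, a factor of heart and extraembryonic mesoderm, was higher by 1.78 in H9 and 0.76 in HES2 (0.26 without H9 shDDX18#1, 2.28 without HES2 shDDX18#1). Of 15 trophoblast and amnion genes tested, HAND1 was the 1 called higher, while IGFBP3, GATA3 and EPAS1 were called lower, with a median of -0.37. GATA3 differed by -1.39 in H9 and -0.60 in HES2.

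**Figure D5:**
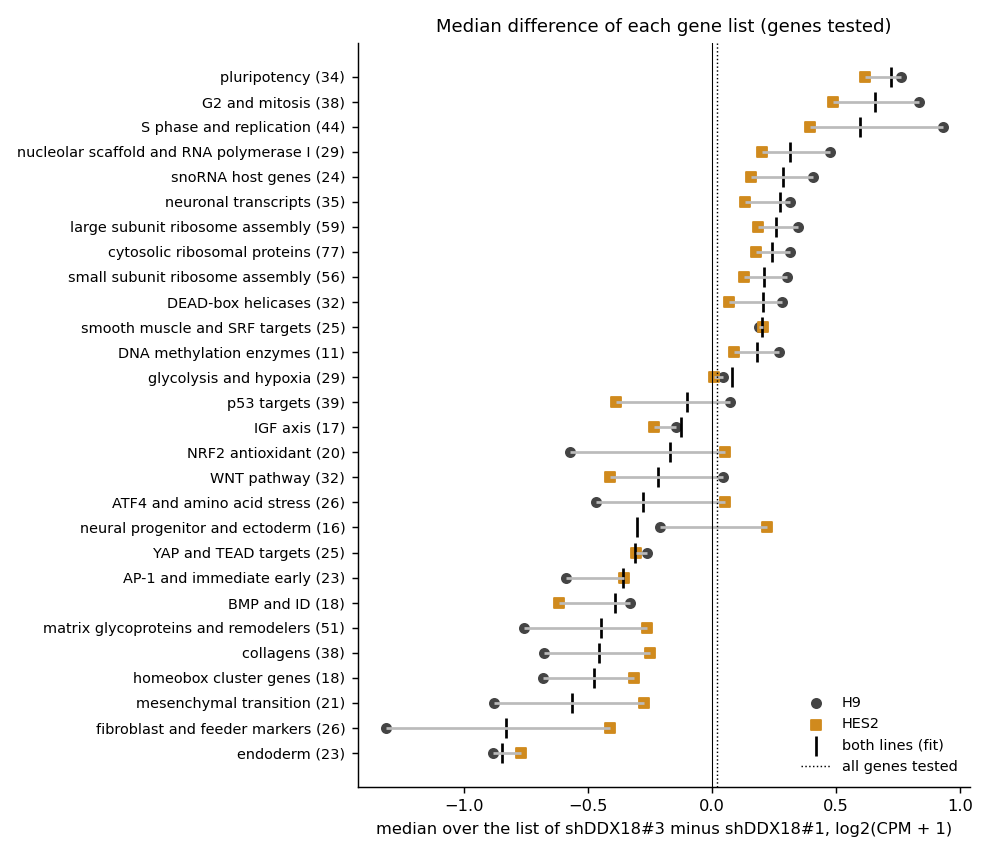
Median difference between shDDX18#3 and shDDX18#1 over the tested members of 28 gene lists (number tested in brackets), on the log2(CPM + 1) scale, in H9 (circles), in HES2 (squares) and in the fit of both lines (bars), with the median of all genes tested as a dotted line. Pluripotency, S phase and G2 lists lie at the upper end in both lines, endoderm and fibroblast markers at the lower end, and the lines are farthest apart for the fibroblast markers.

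In 12 of the 52 lists no member was called by limma: translation factors, NODAL and LEFTY signalling, interferon response, small RNA processing, folding in the endoplasmic reticulum, metallothioneins, oxidative phosphorylation, the proteasome, histones, cell junctions, integrins and endothelium. Of their 290 members tested, 63 had an unadjusted p under 0.05, and edgeR called 12 and DESeq2 0.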

How the data were processed

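For 6 libraries, the authors deposited a table in which each of 17929 genes has a normalized signal. Per the submitters' processing notes, the tools were edgeR 3.26.8, HTSeq 0.11.2, Bowtie2 2.3.4.3 and SAMtools 1.9, and the build was hg19. Their roles are not given in the sources used here. Per the labels' protocols, libraries were made from total RNA with a TruSeq RNA kit, which keeps no strand. Tested on the table, each deposited signal value is a whole number of reads (tolerance 0.001, 100% of values) times the value of 1 read, so it is a count per 1000000 reads of effective library size (CPM). The authors' log2 fold changes, p-values and score, which concern knockdown against shLuc, were not used for this comparison.

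Differences were fitted on log2(CPM + 1) in R 4.3.3 by limma 3.58.1, whose prior variance followed an intensity trend, with hairpin and cell line as terms, on the 4 hairpin libraries. A gene was tested where 2 or more of these reached 1 CPM (17052 genes, leaving out 877), with Benjamini-Hochberg adjustment over all and calls at an adjusted p under 0.05. The line pairs the libraries: replicate 1 is H9 and replicate 2 is HES2, and both hairpins were used in the same lines. With 2 pairs, an exact sign-flip test of 1 gene cannot go below a two-sided p of 0.5, so single genes have only the fitted p. On simulated data of 17050 genes with 200 changed, the fit recovered 79% of 2-fold and 100% of 4-fold changes. Of its 199 calls, 20 (10.05%) were unchanged genes, more than the 0.05 threshold aims at. The changed genes averaged at least 10 CPM and were changed alike in both lines. Genes tested here can be lower and can differ between the lines, so these rates may not hold for them.

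The text names DDX18, the 12 largest positive and 12 largest negative differences among called genes that have a symbol, average 3 CPM or more and share 1 direction in both lines, and up to 3 members of smallest p from each of 52 gene lists, not all of which are reported here. Genes outside this rule are named as members counted in a list or are said to be chosen after their values were seen. The members, lists and rule were chosen with earlier results of these data known. Lists are described by counts and medians, without a test. Promoter sequences came from RefSeq on GRCh38.p14. The table names 15532 genes, a separate name list gave 600 more symbols, and 1797 remain without one. Alternatives were other pseudocounts, filters and scalings, limma with a robust prior or without trend, a fit without the line, a fit of all 6 libraries, DESeq2 1.42.0 and edgeR 4.0.16 applied to recovered reads, and leaving out each hairpin library. The edgeR fit of 6 libraries was added after seeing the data.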

Additional observations from a re-analysis of the deposited data

Results flagged for a closer look

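For 11 of the gene lists with at least 5 members tested, the median difference between shDDX18#3 and shDDX18#1 had opposite signs in the lines, with 1 library per hairpin and line. The difference between the lines was not tested in any of them. For p53 targets the median was 0.07 in H9 and -0.39 in HES2, so HES2 minus H9 was -0.46, although GDF15 and CDKN1A were lower with shDDX18#3 in both. For the WNT pathway it was 0.04 in H9 and -0.41 in HES2, a gap of -0.46. Neural progenitor and ectoderm genes had a median of -0.21 in H9 and 0.22 in HES2, a gap of 0.43, while IRX3, SOX21 and PAX6 were lower in both. For genes of ATF4 and amino acid stress the median was -0.47 in H9 and 0.05 in HES2, a gap of 0.52, and for NRF2 antioxidant genes it was -0.57 in H9 and 0.05 in HES2, a gap of 0.63. SLC7A5, SLC3A2 and HMOX1 of these lists were lower with shDDX18#3 in both lines. Replication-dependent histones, with no member called, had the widest gap of these lists, 0.83, from -0.75 in H9 and 0.08 in HES2, followed by 7 endothelial genes at -0.75, from 0.24 and -0.51. The gap was -0.35 for FGF and ERK feedback, -0.27 for NOTCH and HES, 0.10 for cholesterol and fatty acid synthesis and -0.11 for apoptosis and the BCL2 family.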

How the results depend on the processing

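Counts of calls depended on the estimate of spread. Against 274 higher and 382 lower, the counts were 0 and 0 in limma without the trend (1203 and 1311 at an unadjusted p under 0.05), with no replicate block for the line (519 and 531) and in the 6-library fit (1371 and 1127). They were 480 and 786 with edgeR, 25 and 95 with DESeq2, 10 and 18 with edgeR on 6 libraries, and 784 and 614 with scaling to total reads. A pseudocount of 0.25 gave 425 higher genes. The share of calls that were higher was 41.8% here, 56.1% with total reads and 20.8% with DESeq2. Leaving out 1 hairpin library within the 6-library fit, which itself calls 0, gave 0 to 23 higher and 0 to 34 lower genes. The cause of these changes was not tested.

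The difference in DDX18 stayed positive throughout but was not called without the trend (0.93, adjusted p = 0.299), with no replicate block (0.93, adjusted p = 0.797), in the 6-library fit (0.93, adjusted p = 0.143), with DESeq2 (0.92, adjusted p = 0.348) or with edgeR on 6 libraries (0.89, adjusted p = 0.148). Leaving out 1 hairpin library gave 0.54 to 1.33. FN1 became 0 under quantile normalization, since it ranks first in all 4 hairpin libraries and is then given 1 value, and POSTN became 0.18 without H9 shDDX18#1 and -4.08 without HES2 shDDX18#1. All 656 called genes kept their direction with edgeR and DESeq2, which is little check, since both used the same 4 libraries and terms. Without H9 shDDX18#1, 654 kept it, and as many without H9 shDDX18#3. With no replicate block and in the 6-library fit of limma the differences equal those reported by construction, so their direction is no check. Counting error limits genes of a few reads, such as SYP, SNCB and RAB3C.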
